A study of Caenorhabditis elegans with 18 samples.

Results

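The *far* genes of *Caenorhabditis elegans* encode fatty acid and retinol binding proteins, a class of small, helix-rich carriers found in nematodes. The 8 genes *far-1* to *far-8* were selected by name, through probe sets that the platform annotation pairs with a single gene symbol, out of 17118 genes with at least 1 such probe set. All 8 were measured, each by 1 probe set. No measured value enters that rule, but the family was picked with results of these arrays known, so the values below describe it and are no independent evidence about it.

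Proteins of this class hold a fatty acid or retinol in a pocket lined by helices and shield it from water. Parasitic nematodes secrete such proteins into the host. In *C. elegans* the family is grouped by sequence into *far-1*, *far-2* and *far-6*, then *far-3*, *far-4* and *far-5*, and then *far-7* and *far-8*, and FAR-7 is the member whose crystal structure was solved. The lipids they can bind come from the food or are made by the worm.

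Wild-type N2 worms, obtained as synchronized populations from embryos, were fed with *Escherichia coli* OP50, the usual laboratory food and the control diet here, with *Lactobacillus rhamnosus* CNCM I-3690 or with *L. rhamnosus* CNCM I-4317, for 3 or for 10 days. No transgene, mutation or further agent is named for any group. Total RNA of whole worms was hybridised to 18 Affymetrix arrays, 3 in each of the 6 groups, and the labels number the arrays of a group as separate samples. A step that keeps offspring out of the 10-day populations is not given in the sources used here, and an RNA extract of whole worms holds all tissues and any embryos.

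Values are log2 expression as deposited. The median of all 22625 probe sets on an array lay between 1.27 and 1.40, close to the floor of these arrays, and arrays of 1 group correlated at r 0.981 to 0.996 across probe sets. Levels of different probe sets are not set against each other, since each has its own binding strength. The signals of *far-1*, *far-2*, *far-3*, *far-6* and *far-8* exceeded the array median on all 18 arrays. Those of *far-7* did so on 16 of 18, those of *far-4* on 5 and those of *far-5* on 2, so the differences of these 3 genes are measured near the floor. The probe sets of *far-1* and *far-3* are of the type that can also bind related transcripts, which the arrays cannot separate from the named gene.

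Differences were tested with limma on all probe sets and all 18 arrays, and calls rest on p-values adjusted after Benjamini and Hochberg, at a threshold of 0.10. The methods call the replicates biological, but the number they state per condition is not the one the labels and legends give, and the labels name no separate cultures, so these p-values measure the spread between these samples, which may be technical. In whole worms, fewer cells of a type and less RNA per cell cannot be told apart.

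The widest move in the family was that of *far-3* with time. On OP50 the 3 arrays at 3 days read 3.09, 4.88 and 4.03, and those at 10 days read 7.23, 7.43 and 7.38. Worms fed with CNCM I-3690 gave 4.06, 4.41 and 4.67 at 3 days and 8.86, 8.75 and 8.91 at 10 days. Worms fed with CNCM I-4317 gave 4.66, 3.09 and 4.14 at 3 days and 8.93, 8.49 and 9.09 at 10 days. On every diet all 10-day arrays lay above all 3-day arrays, and the gap was wider than the spread within any group. *far-3* rose by 3.35 on the log2 scale on OP50 (10.2-fold, SE 0.38, adjusted p = 3.02e-05), by 4.46 on CNCM I-3690 (22.0-fold, adjusted p = 6.68e-07) and by 4.87 on CNCM I-4317 (29.3-fold, adjusted p = 3.41e-07). Ordered by size among the rises of all 22625 probe sets, it stood at place 30 on OP50, at 17 with CNCM I-3690 as food and at 9 with CNCM I-4317. Its arrays were also less even at 3 days, with a within-group SD of 0.715 against 0.196 at 10 days.

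**Figure D1:**
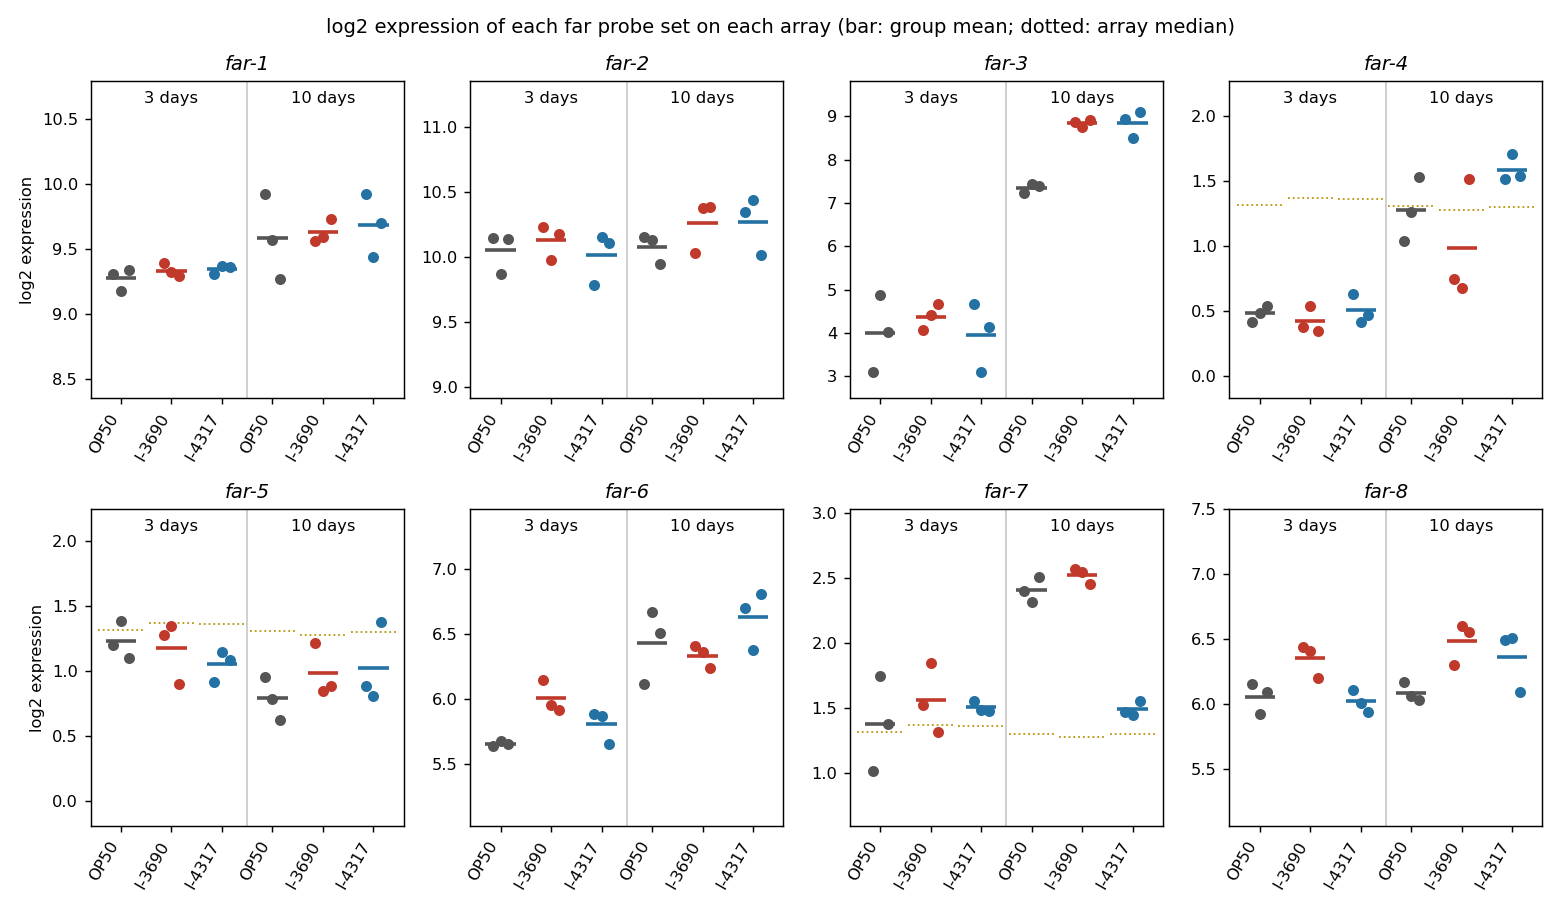
log2 expression (vertical axis, own range for each gene) of the 8 *far* probe sets on each of the 18 arrays, by diet and day, with a bar at each group mean (n = 3) and a dotted line at the mean of the array medians of the group where it falls in range. *far-3* at 10 days lies between 7.23 and 9.09 on all diets against 3.09 to 4.88 at 3 days, and *far-7* at 10 days is at 1.45 to 1.56 on CNCM I-4317 against 2.32 to 2.57 on the other diets.

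Its sequence relative *far-4* rose as well, from a level near the floor. On OP50 it read 0.42, 0.49 and 0.54 at 3 days and 1.04, 1.26 and 1.53 at 10 days. On CNCM I-3690 the 3-day arrays read 0.38, 0.54 and 0.35, and the 10-day arrays read 0.75, 0.68 and 1.52. On CNCM I-4317 they read 0.63, 0.42 and 0.47, then 1.52, 1.71 and 1.54. The 10-day arrays lay above the 3-day arrays on each diet, and on CNCM I-3690 a single array stood well above the other two. The rise was 0.79 (SE 0.17, adjusted p = 0.00823) on OP50, 0.56 (adjusted p = 0.0265) on CNCM I-3690 and 1.08 (adjusted p = 0.000334) on CNCM I-4317. Without the third 10-day array of CNCM I-3690 the difference on that diet was 0.29 and was not called (adjusted p = 0.138).

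The third member of that sequence group, *far-5*, gave no call with time, and its signal was mostly under the array median. Its group means ran from 0.79 ± 0.166 (SD, n = 3) on OP50 at 10 days to 1.23 ± 0.147 on OP50 at 3 days, and each group overlapped the next in that order. The days did not overlap on OP50 (1.10 to 1.39, then 0.63 to 0.96), and they did on both lactobacilli. The difference between the days was -0.44 on OP50 (adjusted p = 0.122), -0.19 on CNCM I-3690 (adjusted p = 0.459) and -0.02 on CNCM I-4317 (adjusted p = 0.945). On OP50 it was called lower without replicate 1 of OP50 at 10 days (-0.52, adjusted p = 0.0852), and when the third 3-day array of CNCM I-3690 or the third 10-day array of CNCM I-4317 was left out. With only the probe sets above the percentile of 40 it was called lower on OP50 too (-0.44, adjusted p = 0.0981).

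The third gene with a higher level at 10 days was *far-6*, which groups by sequence with *far-1* and *far-2*. On OP50 it read 5.64, 5.68 and 5.66 at 3 days and 6.12, 6.67 and 6.51 at 10 days. Worms fed with CNCM I-3690 gave 6.15, 5.96 and 5.92, then 6.41, 6.36 and 6.24, and those fed with CNCM I-4317 gave 5.89, 5.87 and 5.66, then 6.70, 6.38 and 6.81. The days did not overlap on any diet. *far-6* rose by 0.77 (SE 0.14, adjusted p = 0.00157) on OP50 and by 0.82 (adjusted p = 0.000420) on CNCM I-4317, while the difference of 0.32 on CNCM I-3690 was not called (adjusted p = 0.102). On that diet it was called in 9 of 28 alternatives, among them those without the first 3-day array of that diet, replicate 1 or 2 of OP50 at 10 days, or replicate 2 or 3 of CNCM I-4317 at 10 days, and it was 0.05 (adjusted p = 0.862) after cyclic loess, another between-array scaling.

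*far-7* was higher at 10 days on 2 of the 3 diets. On OP50 the arrays read 1.02, 1.75 and 1.38 at 3 days and 2.40, 2.32 and 2.51 at 10 days. On CNCM I-3690 they read 1.53, 1.85 and 1.32, then 2.57, 2.55 and 2.46. On CNCM I-4317 they read 1.56, 1.49 and 1.48, then 1.47, 1.45 and 1.56, so the days overlapped on this diet and not on the others. The rise was 1.02 on OP50 (2.03-fold, SE 0.15, adjusted p = 0.000363) and 0.96 on CNCM I-3690 (1.95-fold, adjusted p = 0.000236), and the difference on CNCM I-4317 was -0.02 (95% interval -0.34 to 0.31, adjusted p = 0.966). These values lie close above the array median, near the floor. The call on OP50 and that on CNCM I-3690 held under all 28 alternatives. Both rest on 10-day arrays of *far-7* that also enter differences known beforehand, so they are no independent support.

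*far-8*, which groups by sequence with *far-7*, read 6.15, 5.92 and 6.09 on OP50 at 3 days and 6.17, 6.06 and 6.03 at 10 days. On CNCM I-3690 it read 6.44, 6.41 and 6.20, then 6.30, 6.60 and 6.55. On CNCM I-4317 it read 6.11, 6.01 and 5.94, then 6.49, 6.51 and 6.09. The days overlapped on each diet. Only the difference on CNCM I-4317 was called (0.35, SE 0.12, adjusted p = 0.0571), and this call was lost in 8 of 28 alternatives, with a value of 0.14 (adjusted p = 0.605) after cyclic loess. It was also lost without replicate 2 or 3 of CNCM I-4317 at 3 days and without replicate 1 or 2 at 10 days (0.27 to 0.34, adjusted p = 0.130 to 0.193). The differences of 0.04 on OP50 (adjusted p = 0.929) and 0.13 on CNCM I-3690 (adjusted p = 0.510) were not called, and both fell below 0 after cyclic loess, at -0.05 and -0.13.

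*far-1* and *far-2* had no called difference in any comparison of the fit of all arrays. The arrays of *far-1* read between 9.18 and 9.92, and its mean was 0.31 (adjusted p = 0.232), 0.29 (adjusted p = 0.156) and 0.34 (adjusted p = 0.108) higher at 10 days on OP50, on CNCM I-3690 and, in turn, on CNCM I-4317. The within-group SD of *far-1* was 0.0604 at 3 days and 0.239 at 10 days, where the OP50 arrays read 9.92, 9.57 and 9.27. Its difference was called on OP50 without replicate 3 at 10 days (0.47, adjusted p = 0.0591), on both lactobacilli without replicate 1 or 3 of OP50 at 10 days or with arrays centred on their median (0.38 and 0.40), and on CNCM I-4317 without replicate 2 at 10 days (0.46, adjusted p = 0.0395). *far-2* read between 9.79 and 10.44 on all arrays. Its differences were 0.03, 0.13 and 0.25 (adjusted p = 0.954, 0.579 and 0.250), and the first 2 turned to -0.02 and -0.04 after cyclic loess. In the order of their means, each group of *far-1* and of *far-2* overlapped the next. The days of *far-2* overlapped on each diet, and those of *far-1* overlapped on OP50 only. *far-1* read 9.29 to 9.39, then 9.56 to 9.73 on CNCM I-3690, and 9.31 to 9.37, then 9.44 to 9.92 on CNCM I-4317.

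Counted over the family, 4 of 8 genes were called higher on OP50 (*far-3*, *far-4*, *far-6* and *far-7*), 3 on CNCM I-3690 (*far-3*, *far-4* and *far-7*) and 4 on CNCM I-4317 (*far-3*, *far-4*, *far-6* and *far-8*), and none was called lower. Of all probe sets, 5.41% were called higher and 5.37% lower on OP50, 17.3% and 12.6% on CNCM I-3690, and 15.4% and 10.0% on CNCM I-4317. These shares take in the many probe sets near the floor. With only the 13575 probe sets above the percentile of 40, the calls in either direction were 2540, 6462 and 5802, a larger share on each diet. The median log2 difference of the 8 genes was 0.54, 0.31 and 0.34 in the same order, against 0.02, 0.04 and 0.03 over all probe sets. *far-3* and *far-4* were called on all diets. *far-7* enters these counts and medians although its 10-day values were known when the family was picked.

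**Figure D2:**
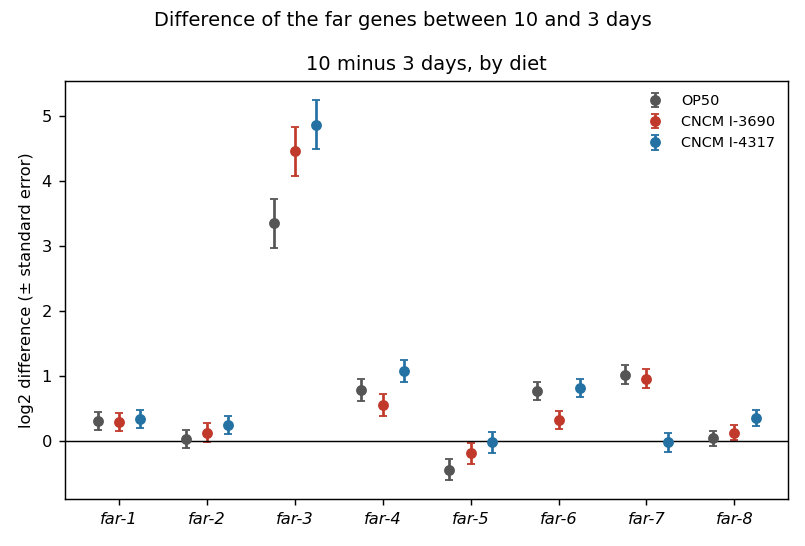
log2 difference between 10 and 3 days (vertical axis) for each *far* gene on each diet, with bars of ± 1 standard error from the fit of 18 arrays. *far-3* is at 3.35, 4.46 and 4.87, and the *far-7* point of CNCM I-4317 is at -0.02 beside 1.02 and 0.96 for the other diets.

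Transcripts that mark tissues moved with time too. Of 9 measured intestinal markers, 5 were lower at 10 days on OP50, 7 with CNCM I-3690 and 8 with CNCM I-4317, and none was higher, with medians of -0.87, -1.88 and -1.54. Among 7 body wall muscle markers 5, 6 and 6 were lower, and among 8 epidermal markers 4, 6 and 5 were lower, with 1 epidermal marker higher on CNCM I-3690. Neuronal markers, 8 in number, gave 1 call higher on each diet and 0, 2 and 1 lower. Sperm markers, of which 6 were measured, gave 2, 4 and 3 calls lower. Of 9 oocyte and eggshell markers 1 was higher on OP50 and 8 on each lactobacillus. Over the 3 diets the summed level of the intestinal list, on the log2 scale, ran from 9.86 to 10.94 at 3 days and from 8.86 to 10.00 at 10 days, and most of it was the probe set of *asp-1*. The same range was 9.88 to 10.37 and 7.64 to 9.21 for muscle, 10.69 to 11.47 and 8.19 to 10.28 for epidermis, and 7.57 to 7.87 and 7.78 to 8.40 for neurons. It was 5.78 to 10.75 and 3.63 to 6.65 for sperm, and 11.72 to 12.25 and 12.24 to 12.66 for oocytes and eggshell. Such sums follow the brightest probe sets of a list. At 10 days the arrays of OP50 alone spanned the muscle and epidermis ranges. Muscle ran from 8.44 to 9.13 on CNCM I-3690 and from 8.03 to 8.47 on CNCM I-4317. Epidermis ran from 9.10 to 9.73 and from 8.43 to 9.11 in the same order. The part of the marker shifts in the *far* differences was not tested.

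The question posed by the diets is whether the lactobacilli changed the worms' expression relative to OP50. At 10 days *far-3* was higher on both lactobacilli. The OP50 arrays read 7.23 to 7.43, those of CNCM I-3690 8.75 to 8.91 and those of CNCM I-4317 8.49 to 9.09, without overlap with OP50. The means were 7.35 ± 0.108 (SD, n = 3), 8.84 ± 0.0815 and 8.84 ± 0.312. Both differences from OP50 were 1.49 on the log2 scale, or 2.81-fold, with 95% intervals of 0.70 to 2.29 for CNCM I-3690 and 0.69 to 2.29 for CNCM I-4317. Neither passed the threshold in the fit of all 18 arrays (SE 0.38, adjusted p = 0.140 and 0.113). That fit takes its error for *far-3* from the uneven 3-day arrays as well. With only the 9 arrays of 10 days, an alternative chosen after the values were seen, the SE was 0.15 and both were called (adjusted p = 0.00634 and 0.00809). In the fit across days both were also called without replicate 1 or 2 of OP50 at 3 days (adjusted p = 0.0523 to 0.0683) or replicate 2 of CNCM I-4317 at 3 days, and that of CNCM I-4317 without replicate 1 at 3 days or replicate 2 at 10 days as well. Over all alternatives the adjusted p ranged from 0.00622 to 0.332 and from 0.00809 to 0.302, and the difference from 1.43 to 1.54 and from 1.36 to 1.66. The lactobacilli differed from each other by 0.00 (95% interval -0.79 to 0.80, adjusted p = 0.999), an interval that leaves room for differences of up to 0.80 either way.

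*far-7* at 10 days separated the lactobacilli, a difference that is in the study's own gene lists and is given here as a description with no test. Its mean was 1.49 ± 0.0610 (SD, n = 3) on CNCM I-4317, 2.41 ± 0.0981 on OP50 and 2.53 ± 0.0606 on CNCM I-3690. The arrays of CNCM I-4317 were below all arrays of the other diets. The gap was 1.04 on the log2 scale, or 2.05-fold, for CNCM I-3690 minus CNCM I-4317, and -0.92 for CNCM I-4317 minus OP50, with an SE of 0.15. CNCM I-3690 and OP50 overlapped and differed by 0.12 (95% interval -0.20 to 0.44, adjusted p = 0.974). *far-7* ordered the 6 groups as OP50 at 3 days (1.38), CNCM I-4317 at 10 days (1.49), CNCM I-4317 at 3 days (1.51), CNCM I-3690 at 3 days (1.57), OP50 at 10 days (2.41) and CNCM I-3690 at 10 days (2.53), and the only neighbours in that order whose arrays did not overlap were the fourth and the fifth.

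**Figure D3:**
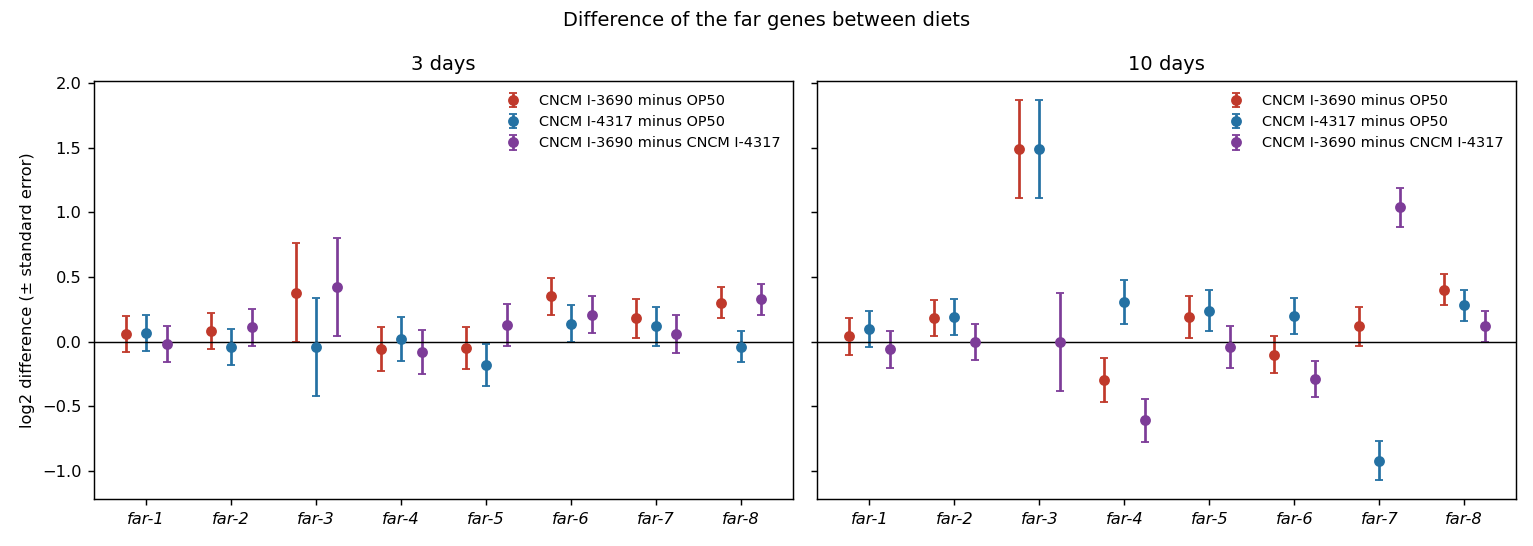
log2 difference between diets (vertical axis) for each *far* gene at 3 days (left) and 10 days (right), with bars of ± 1 standard error from the fit of 18 arrays. At 10 days *far-3* lies at 1.49 for both lactobacilli against OP50, and *far-7* lies at -0.92 for CNCM I-4317 minus OP50 and at 1.04 for CNCM I-3690 minus CNCM I-4317.

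Other members differed less between diets at 10 days. *far-8* read 6.30, 6.60 and 6.55 on CNCM I-3690 against 6.17, 6.06 and 6.03 on OP50, without overlap, a difference of 0.40 (95% interval 0.14 to 0.66) that was not called (adjusted p = 0.325). *far-4* read 0.75, 0.68 and 1.52 on CNCM I-3690 against 1.52, 1.71 and 1.54 on CNCM I-4317, with the nearest arrays both at 1.52 after rounding, a difference of -0.61 (95% interval -0.98 to -0.24) that was not called either (adjusted p = 0.395). Without the array of CNCM I-3690 at 1.52 it was -0.87 and called (adjusted p = 0.0755). In the fit of all arrays 0 of 8 genes were called between CNCM I-3690 and OP50 at 10 days, where 0.539% of all probe sets were called. With *far-7* set aside, none of the other members was called between CNCM I-4317 and OP50 (0.937% of all probe sets) or between the lactobacilli (0.0177%, 4 probe sets). At an unadjusted p under 0.05, *far-3* and *far-8* passed against OP50 on either lactobacillus and *far-4* and *far-6* between the lactobacilli, with 1646, 2426 and 1634 of all probe sets. The median difference of the 8 genes was 0.15, 0.22 and -0.02. No intestinal, epidermal, neuronal, sperm or oocyte marker was called between diets at 10 days, and 1 muscle marker was higher on CNCM I-3690 than on OP50. The 10-day arrays of OP50 differed widely in their muscle and epidermal sums, so an absent call against OP50 leaves room for differences.

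At 3 days, which the study calls the young adult stage, none of the 8 genes was called in any diet comparison. The share of probe sets called was 6.12% between CNCM I-3690 and OP50, 0.115% between CNCM I-4317 and OP50 and 0.119% between the lactobacilli. Of the members 2, 0 and 1 passed an unadjusted p under 0.05, against 4171, 2217 and 2034 probe sets. Only *far-6* and *far-8* had arrays on CNCM I-3690 that did not overlap with those of OP50 or of CNCM I-4317. How many of all probe sets show this with 3 arrays per group was not counted, so it is no result about the family. Between the lactobacilli *far-6* differed by 0.21 (adjusted p = 0.700). The mean of *far-6* was 5.66 ± 0.0196 (SD, n = 3) with OP50 against 6.01 ± 0.122 with CNCM I-3690, without overlap (0.35, 95% interval 0.06 to 0.64, adjusted p = 0.178). That of *far-8* was 6.35 ± 0.129 with CNCM I-3690, above all arrays of OP50 (0.30, adjusted p = 0.203) and of CNCM I-4317 (0.33, adjusted p = 0.414). After cyclic loess both were called in the comparison of CNCM I-3690 with OP50, and *far-6* also without replicate 1 of OP50 at 10 days (adjusted p = 0.0973). In that same comparison 4 of 6 sperm markers were higher on CNCM I-3690 (median 2.70) and 3 of 9 oocyte and eggshell markers lower (median -0.38). Higher there were also 1 of 9 intestinal (median 0.71), 1 of 8 epidermal (median 0.35) and 1 of 7 muscle markers (median 0.38), with 0 of 8 neuronal markers called (median 0.33). For CNCM I-4317 minus OP50 at 3 days the sperm median was also above 0, at 1.80, with 0 of 6 called. The oocyte and eggshell median there was -0.16, with 0 of 9 called. The part of any of these markers in the *far* values was not tested. *far-3* at 3 days differed by 0.38 between CNCM I-3690 and OP50 and by -0.04 between CNCM I-4317 and OP50, with intervals of -0.42 to 1.17 and -0.84 to 0.76.

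Whether the change with time itself differed between diets was tested as a contrast of 2 differences. For CNCM I-3690 against OP50, 0 of 8 genes were called (0.809% of all probe sets) and 1 passed an unadjusted p under 0.05, against 2974 probe sets. *far-3* rose 1.11 more on CNCM I-3690 than on OP50 (SE 0.53, 95% interval -0.01 to 2.24, adjusted p = 0.387), and *far-6* 0.45 less (SE 0.19, adjusted p = 0.331), and neither was called. For CNCM I-4317 against OP50, the change of *far-7* was -1.04 on the log2 scale relative to OP50. That contrast contains the 10-day difference known from the study's lists, so it stands as a description with no test. None of the other members was called (0.230% of all probe sets). Of these others only *far-3* passed an unadjusted p under 0.05, against 2185 probe sets. *far-3* rose 1.53 more on CNCM I-4317 than on OP50 (95% interval 0.40 to 2.65, adjusted p = 0.376). Between the lactobacilli 0 of 8 genes and 0% of all probe sets were called by limma, while *far-4*, *far-6* and 1228 probe sets in all passed an unadjusted p under 0.05. *far-7* changed 0.98 more on CNCM I-3690 than on CNCM I-4317, and *far-6* 0.50 less (adjusted p = 0.858). The changes of *far-6* on the 3 diets are therefore not shown to differ, though only 2 of them were called.

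Other lipid carrier genes of the worm were followed over the same days, with no test of lists against each other. The *lbp* genes encode intracellular fatty acid binding proteins. Of 9 measured, 0 were higher and 1 lower at 10 days on OP50, 1 and 5 on CNCM I-3690 and 1 and 4 on CNCM I-4317, with medians of -0.38, -0.68 and -0.32. *lbp-6* fell on every diet, by 1.20 on OP50 (adjusted p = 0.00198), 1.88 on CNCM I-3690 (adjusted p = 1.37e-05) and 1.58 on CNCM I-4317 (adjusted p = 8.50e-05). *lbp-5* fell by 1.50 on CNCM I-3690 (adjusted p = 0.000797) and by 1.28 on CNCM I-4317 (adjusted p = 0.00317). *lbp-7* had the largest fall of the list on CNCM I-3690, from a mean of 4.39 to 2.39 (adjusted p = 0.000288), and it fell by 1.15 on CNCM I-4317 (adjusted p = 0.0185), while *lbp-9* was the member called higher, by 0.40 (adjusted p = 0.00965) on CNCM I-3690 and 0.43 (adjusted p = 0.00748) on CNCM I-4317. At 3 days *lbp-5* (1.07, adjusted p = 0.0470) and *lbp-7* (1.22, adjusted p = 0.0527) were higher on CNCM I-3690 than on OP50.

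The acyl-CoA binding genes carry activated fatty acids inside cells. Of 6 measured, 0 were higher and 2 lower on OP50, 2 and 3 on CNCM I-3690, and 0 and 2 on CNCM I-4317. *acbp-1* was lower at 10 days on each diet (-0.49, -0.71 and -0.56) and so was *acbp-3* (-0.96, -1.18 and -1.42). On CNCM I-3690 *acbp-6* was called lower too, from a mean of 3.07 at 3 days to 1.86 at 10 days. *maa-1*, a membrane-bound member that acts in endosomal transport, was higher on that diet by 0.50 (adjusted p = 0.0526). At 3 days *acbp-6* was higher on CNCM I-3690 than on OP50 (1.07, adjusted p = 0.0333). None of the 7 lipocalin-related *lpr* genes was called with time on any diet, with medians of -0.14, -0.04 and -0.15.

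Yolk lipoproteins move lipid from the intestine to oocytes. Of 6 measured genes of the yolk list, which holds the *vit* genes and the oocyte yolk receptor *rme-2*, 0 were higher and 2 lower on OP50, 4 and 1 on CNCM I-3690 and 3 and 1 on CNCM I-4317. *vit-1* was lower on every diet (-1.84, -1.66 and -1.73), with *vit-2* lower on OP50 (-0.40, adjusted p = 0.0538). *vit-5* was higher on CNCM I-3690 (0.56, adjusted p = 0.00419) and CNCM I-4317 (0.49, adjusted p = 0.0126), and *rme-2* likewise (0.68 and 0.33). *rme-2* is itself 1 of the oocyte and eggshell markers given above, so its rise is no separate observation. The *vit* genes are close relatives, so a probe set may bind more than 1 of them.

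The last list holds 5 genes of lipoprotein assembly and sterol or peroxisomal lipid handling, of which 3 were lower on every diet and none higher, with medians of -0.84, -0.99 and -1.10. *dsc-4*, a homolog of the microsomal triglyceride transfer protein that loads lipid onto lipoproteins, was lower by 1.15, 2.04 and 1.32. *nlt-1*, a sterol carrier-like gene, gave -0.84, -1.22 and -1.66, and *dhs-28*, a peroxisomal enzyme that shortens the side chains of ascaroside pheromones, gave -1.28, -0.99 and -1.10. At 3 days *dsc-4* was higher on CNCM I-3690 than on OP50 (0.60, adjusted p = 0.0537). None of the 5 lists gave a call in any other diet comparison or in the contrasts of change with time.

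**Figure D4:**
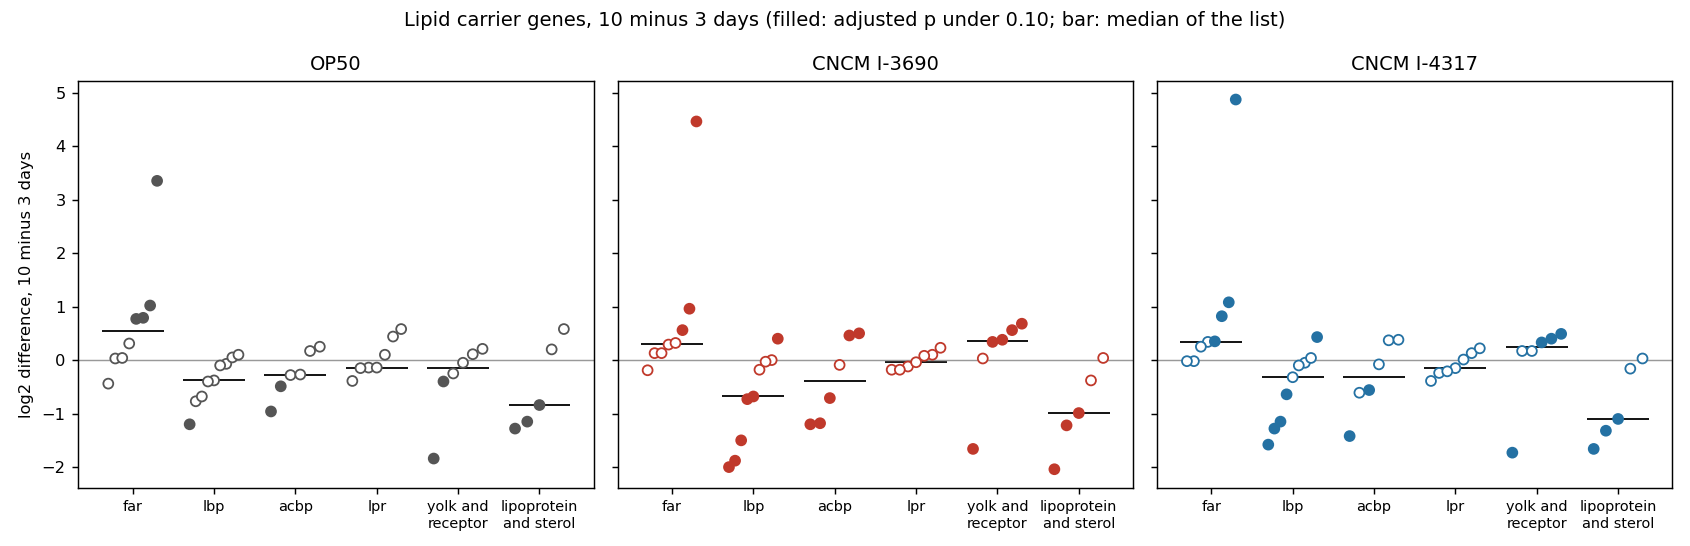
log2 difference between 10 and 3 days (vertical axis) for the *far* genes and 5 other lists of lipid carrier genes (horizontal axis), 1 panel per diet, filled where called at an adjusted p under 0.10, with a bar at each list's median. The *far* points called lie above 0, with medians of 0.54, 0.31 and 0.34, and the lipoprotein and sterol list has medians of -0.84, -0.99 and -1.10.

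Genes whose values followed a *far* gene most closely were taken by Pearson r over the 18 arrays after the mean of the arrays of the same day was subtracted, for the 6 members whose mean exceeded the array median. These are descriptions over arrays that share diet and day groups. The genes were picked for the highest r on these same arrays, so a high r follows from the choice, and no chance level was worked out. For *far-7* the r takes in the 10-day gap of CNCM I-4317, which was known beforehand. *far-3* was followed by *F55B11.5* (r = 0.86), *abhd-3.1* (0.85) and *T05A7.1* (0.84), and *far-7* by *F43C11.7* (0.84), *acl-7* (0.82) and *idh-1* (0.80), an isocitrate dehydrogenase. For *far-1* the closest were *sipa-1* (0.87), *rpl-26* (0.85), a ribosomal protein gene, and *ttc-36* (0.84). For *far-2* they were *let-413* (0.78), *C53D6.6* (0.77) and *gex-2* (0.77), for *far-6* *Y69H2.3* (0.88), *Y46H3D.1* (0.84) and *F55A3.6* (0.84), and for *far-8* *Y73C8B.3* (0.89), *B0207.11* (0.85) and *T19D12.6* (0.85). The r of the 3 genes closest to *far-1* was 0.63, 0.31 and 0.17 over the 9 arrays of 3 days and 0.96, 0.96 and 0.89 over those of 10 days, and that of the 3 closest to *far-7* was 0.51, 0.51 and 0.41, then 0.90, 0.87 and 0.93. For the other members it was 0.67 to 0.94 at 3 days and 0.72 to 0.94 at 10 days. *F55A3.6*, *Y46H3D.1* and *B0207.11* lay below the median of every array, with highest values of 0.65, 1.26 and 1.17. *C53D6.6* (0.57 to 1.68), *let-413* (0.97 to 1.90) and *sipa-1* (1.15 to 2.36) were near the floor as well, with lowest values under every array median. No *far* gene was among the 3 closest of another, since the rule left the family out. Within the family r ran from -0.53 for *far-4* with *far-7* to 0.65 for *far-2* with *far-8*.

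The genes next to the *far* genes were looked up in the WBcel235 annotation, which serves here for order only, and were chosen after the values were seen. *far-1* and *far-2* are neighbours, and *far-5*, *far-3* and *far-4* follow each other, with overlapping spans of *far-5* and *far-3*. Along that run the difference between 10 and 3 days on OP50 was -0.44 for *far-5*, 3.35 for *far-3* and 0.79 for *far-4*, and 0.04 (adjusted p = 0.934) for the following gene, *inft-2*. Beyond *far-2*, *mrpl-44* was lower at 10 days on OP50 (-0.87, adjusted p = 0.000228), whereas *far-1* and *far-2* were not called. *far-6* lies beside *fat-2* and, next to that, *fat-1*, which encode desaturases of fatty acids. *fat-2* was higher at 10 days on OP50 (0.74, adjusted p = 0.0203), as was *far-6*, and *fat-1* was not called (0.19, adjusted p = 0.603). Beside *far-7*, *K01A2.10* was higher on OP50 (0.74, adjusted p = 0.0585), while the gene after it, *sgcb-1*, was not called (-0.41, adjusted p = 0.105). Between the lactobacilli at 10 days *K01A2.10* differed by -0.04 (adjusted p = 0.987), where *far-7* differed by 1.04. Beside *far-8*, *K02F3.9* was lower on OP50 (-1.22, adjusted p = 4.86e-05).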

How the data were processed

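The authors corrected the background and normalized the arrays by RMA, with quantile normalization, and deposited log2 values for each probe set and array. The version of RMA is not given in the sources used here. Quantile normalization makes the distributions of the arrays alike, so a shift of all transcripts cannot be seen. The medians of the deposited arrays still ran from 1.27 to 1.40. Genes were named by the platform annotation, with 20766 of 22625 probe sets carrying 1 symbol, 887 several and 972 none.

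Group means were estimated from the 18 arrays in a single linear model with limma 3.58.1 in R 4.3.3 and moderated with eBayes (12 residual and 4.09 prior degrees of freedom). The 12 contrasts were the diet pairs at each day, the days within each diet and the differences between diets of that change. P-values were adjusted over all probe sets. A threshold of 0.10 was used, because the study's supplementary lists extend to it, while its text states 0.01. The procedure was tested on simulated data.

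The members, gene lists and tests were chosen with earlier results of these data known. Named were every *far* gene, up to 3 called genes of each list by size with some called in the other direction, and for members above the array median the 3 most alike genes. A list gene was represented by its probe set of highest mean. Of the lists, *acbp-7*, *vit-3*, *opt-2* and 2 sperm markers were not measured by a probe set of their own. Protein and promoter sequences were not analysed here. The number of arrays limits the precision. Alternatives were the threshold, the arrays and filter used, the scaling, the moderation, the replicate block and leaving out each array.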

Additional observations from a re-analysis of the deposited data

Results flagged for a closer look

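The change of *far-7* between 3 and 10 days differed between CNCM I-4317 and OP50 by -1.04 on the log2 scale in the contrast of the 2 changes. The arrays at 10 days read 1.47, 1.45 and 1.56 on CNCM I-4317 and 2.40, 2.32 and 2.51 on OP50, and those at 3 days overlapped. The 10-day difference within this contrast is in the study's own lists, and the values lie near the array median of 1.27 to 1.40, so it is given as a description.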

How the results depend on the processing

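Each of the 96 values of the 8 genes was recomputed under up to 29 alternatives, 18 of which left out 1 array. Of 2724 values, 2638 kept their direction and their side of the threshold, 35 lost their call, 43 gained one, 8 moved by more than the spread between arrays with no call, and 0 called values reversed. The number of *far* genes called between CNCM I-3690 and OP50 at 3 days was 2 after cyclic loess in place of 0. Between CNCM I-3690 and OP50 at 10 days it was 1 (*far-3*) with only the arrays of the 2 groups, with only the 9 arrays of that day and with probe sets above the percentile of 40. Between CNCM I-4317 and OP50 at 10 days it was 2 under these 3 settings and 0 at an adjusted p under 0.01. Between the lactobacilli at 10 days it was 0 at 0.01 and with only the arrays of the 2 groups. The count with time on CNCM I-3690 was 5 with only the arrays of that diet and with arrays centred on their median. For the change with time on CNCM I-4317 against OP50 it was 0 at 0.05 and 0.01, with only those groups, after cyclic loess and with trend and robust moderation.

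Leaving out 1 array gave 0 to 1 called genes for CNCM I-3690 against OP50 at 3 and at 10 days, 1 to 2 for CNCM I-4317 against OP50 and 0 to 1 between the lactobacilli at 10 days. It gave 4 to 5, 2 to 5 and 3 to 5 with time on OP50, CNCM I-3690 and CNCM I-4317, 0 to 1 for the change on CNCM I-4317 against OP50, and 0 elsewhere. These counts at 10 days include *far-7*, chosen with its values known, whose difference between the lactobacilli fell on the other side of the threshold without replicate 1, 2 or 3 of CNCM I-3690 at 10 days (1.01 to 1.07 over all alternatives). *far-3* at 10 days was called on either lactobacillus without replicate 1 or 2 of OP50 at 3 days or replicate 2 of CNCM I-4317 at 3 days. *far-4* was removed by the percentile filter.

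The replicate numbers were not taken to pair the arrays, since 15 of 45 same-numbered pairs, not all, deviated together at r above 0.1 (median 0.06), against 19 of 90 others (median -0.03), and 1 of 18 arrays always correlated best with its own number. With the replicate block the *far* counts stayed at 0, 0 and 0 for diets at 3 days, 0, 1 and 1 at 10 days, and no call of a *far* gene changed. The counts of 1 are *far-7*, whose 10-day values were known beforehand, so they add no support for it. Over all probe sets it raised the calls from 26 to 127 for CNCM I-4317 against OP50 at 3 days, from 183 to 405 for the change on CNCM I-3690 against OP50 and from 52 to 98 for that on CNCM I-4317. Low signal over background limits *far-4*, *far-5* and *far-7*.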
